A study of Arabidopsis thaliana with 6 samples.

Results

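The genes described here are 6 stress-protein genes of Arabidopsis thaliana: LTI30, ERD14, COR47 and RAB18, which encode dehydrins, and LEA14 and KIN1, which encode other proteins made in cold or in response to the hormone abscisic acid (ABA). They were chosen by locus code from the authors' deposited table of genes that differed between a dme mutant and wild type (WT), and they are 6 of its 5322 rows. Whole seedlings of the Ler accession were harvested at 7 days after germination from plates of MS medium, with 3 libraries of the mutant (genotype dme/- in the labels) and 3 of WT. DME is an enzyme of active DNA demethylation, which cuts methylated cytosine bases out of DNA. The labels do not name the dme allele or say whether the seedlings of a library were pooled, nor whether libraries of 1 genotype are separate cultures. The p-values of the authors then reflect the spread among these samples, which may be technical.

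Dehydrins are hydrophilic, largely unfolded proteins of the late embryogenesis abundant (LEA) class, which accumulate in drying seeds and in tissue under drought, salt or cold. They share the lysine-rich K-segment, which can fold on membrane surfaces, and protect membranes and enzymes from loss of water. Their genes answer to different signals: ABA acts through receptors, phosphatases, kinases and bZIP factors that bind ABRE elements, whereas cold acts largely through CBF factors, and drought through DREB2 factors, that bind CRT/DRE elements.

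The table lists for each gene the authors' mean normalized count over all 6 libraries, the log2 ratio of dme over WT (a log2 fold change) beside an adjusted p-value, and it keeps only genes past a 2-fold change and an adjusted p of 0.05. Values per library are not part of it, which leaves the spread between replicates and the depth unknown. For a gene that is not listed, a smaller change, a weaker p and no test at all cannot be told apart. That dme is the numerator was taken from the table's name, as the header does not say so. The log2 ratio of DME itself was -1.55 in the authors' deposited table. After repeated rows were counted once, 3867 genes were higher and 1444 lower, and 18.5% of the annotated protein-coding genes were listed (13.6% higher, 4.83% lower). Where a mean for each genotype is given below, it is the one implied by the authors' mean and fold for equal numbers of libraries, taking the fold as a plain ratio of genotype means. The limit given beside a log2 fold change is the largest standard error (SE) that the adjusted p allows if it came from a Wald test, which the sources used here do not say.

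Of the 6 genes, 5 were higher in dme (LTI30, ERD14, COR47, LEA14 and KIN1) and RAB18 was lower. Since the genes were chosen from this comparison, the values describe them and carry no further test. In whole seedlings, fewer cells of a type and less RNA per cell cannot be told apart.

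**Figure D1:**
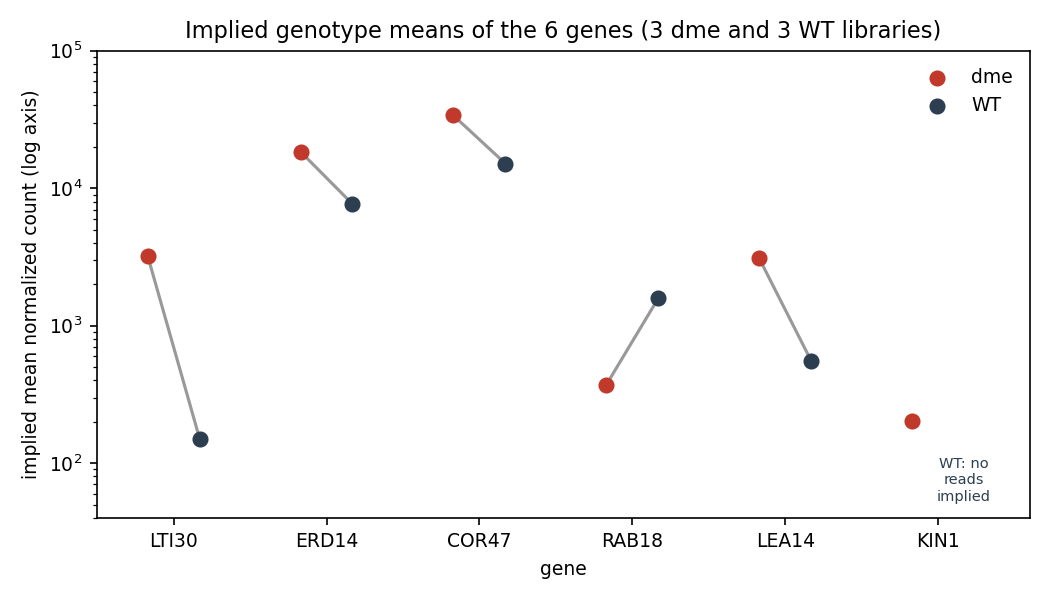
Mean normalized counts of the 6 genes in dme and WT, as implied by the authors' mean and fold (log axis; points are means implied for 3 libraries of each genotype, with no error bar because no value per library is given; lines join the genotypes of a gene). COR47 and ERD14 stand highest in both genotypes, LTI30 has the longest line, RAB18 is the only gene with the lower point in dme, and KIN1 has no WT point.

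LTI30 (AT3G50970, also called XERO2), a dehydrin built of K-segments without the serine tract that its relatives carry, showed the largest fold among the 5 genes with reads in both genotypes. Its implied mean was 3225 normalized counts in dme and 150.9 in WT. The authors' deposited table gives it a mean of 1688, a log2 ratio of 4.42 (SE at most 0.27) and an adjusted p of 9.72e-60. That fold ranked 186 among the 3632 higher genes with reads in both genotypes, and 94.9% of these had a smaller one.

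RAB18 (AT5G66400), the dehydrin named for its response to ABA and known to be active in guard cells, went the other way. Its implied mean was 370.9 normalized counts in dme and 1582 in WT. Its log2 ratio was -2.09 in the authors' deposited table (SE at most 0.24), which is 4.27-fold lower in dme, with an adjusted p of 8.62e-18. This fall was larger than those of 81.6% of the lower genes with reads in both genotypes. RAB18 overlaps a neighbouring gene on the opposite strand by 11 of its 1171 bases, and that neighbour was not listed.

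The 250 bases before the annotated starts of these 2 dehydrin genes are shown because the genes differ both in direction and in the elements found there. They were read from the RefSeq assembly TAIR10.1, which is from the Columbia accession and not from Ler, at chr3:18940393-18940642, plus strand, for LTI30 and chr5:26519448-26519697, minus strand, for RAB18. Capitals mark the ABRE core ACGTG and the CRT/DRE core CCGAC on either strand, so that they also appear as CACGT and GTCGG.
LTI30: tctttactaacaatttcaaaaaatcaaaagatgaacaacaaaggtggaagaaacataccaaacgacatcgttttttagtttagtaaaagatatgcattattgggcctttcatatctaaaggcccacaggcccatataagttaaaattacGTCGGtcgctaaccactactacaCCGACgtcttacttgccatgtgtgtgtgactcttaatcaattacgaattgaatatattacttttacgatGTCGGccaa
RAB18: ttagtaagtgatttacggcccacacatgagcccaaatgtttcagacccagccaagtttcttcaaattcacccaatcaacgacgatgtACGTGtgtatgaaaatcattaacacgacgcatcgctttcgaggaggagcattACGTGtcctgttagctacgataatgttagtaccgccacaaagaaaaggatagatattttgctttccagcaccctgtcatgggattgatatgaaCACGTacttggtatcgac
The LTI30 stretch holds 3 CRT/DRE cores and no ABRE core, and 1 ABRE core follows at the gene start. The RAB18 stretch holds 3 ABRE cores and no CRT/DRE core.

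ERD14 (AT1G76180) and COR47 (AT1G20440) encode acidic dehydrins with a serine tract beside their K-segments, and they had the highest levels of the 6, also per kilobase of transcript. COR47 had an implied mean of 33816 normalized counts in dme and 15113 in WT. ERD14 had an implied mean of 18430.5 in dme and 7672 in WT. Their log2 ratios in the authors' deposited table were 1.16 for COR47 (SE at most 0.18, adjusted p 1.32e-10) and 1.26 for ERD14 (SE at most 0.19, adjusted p 3.74e-11). These were the smallest folds of the 5 genes with reads in both genotypes, 2.24-fold and 2.4-fold, near the threshold of the table: only 9.77% of the higher genes with reads in both genotypes had a smaller fold than COR47, and 14.8% a smaller one than ERD14. By mean over all libraries, in contrast, COR47 ranked 29 and ERD14 80 of the 5311 measurements.

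LEA14 (AT1G01470) belongs to another LEA family, whose members fold into a compact domain, and is induced by wounding and light stress according to the annotation in the table. It had an implied mean of 3092 normalized counts in dme and 555.9 in WT. Its log2 ratio in the authors' deposited table was 2.48 (SE at most 0.20) with an adjusted p of 2.12e-36, a larger fold than those of 65.4% of the higher genes with reads in both genotypes.

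KIN1 (AT5G15960), which encodes a small hydrophilic protein made in cold and under ABA, had the lowest level of the 6, also per kilobase, with an adjusted p of 6.36e-15 and a mean of 101.1 normalized counts according to the authors' deposited table. Its fold has no size of its own, because it is 1 of 290 genes whose fold follows from the mean alone, as when 1 genotype has no reads. The implied mean was 202.1 in dme, with no reads implied in WT. KIN2 (AT5G15970), a near copy, lies 892 bases downstream on the same strand with no annotated gene between them, and was counted in both genotypes. Its implied mean was 1292 in dme and 436.5 in WT, a log2 ratio of 1.57 (SE at most 0.24, adjusted p 5.78e-11) in the authors' deposited table.

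The coding sequences of KIN1 and KIN2 are shown because their likeness bears on how reads were assigned. Both hold 201 bases in TAIR10.1 and encode 66 amino acids, and capitals mark the 10 positions at which they differ (chr5:5209717-5210826 for the KIN1 gene and chr5:5211719-5212743 for the KIN2 gene, plus strand, introns left out).
KIN1: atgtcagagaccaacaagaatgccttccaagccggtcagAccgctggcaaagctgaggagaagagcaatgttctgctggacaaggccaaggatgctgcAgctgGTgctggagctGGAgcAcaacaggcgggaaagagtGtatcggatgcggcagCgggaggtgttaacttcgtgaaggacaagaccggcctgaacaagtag
KIN2: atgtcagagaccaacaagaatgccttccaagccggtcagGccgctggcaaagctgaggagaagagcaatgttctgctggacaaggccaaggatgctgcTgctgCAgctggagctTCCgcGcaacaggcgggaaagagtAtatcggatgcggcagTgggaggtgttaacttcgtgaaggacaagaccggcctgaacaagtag
Of the 780 stretches of 50 bases in the spliced KIN1 transcript, splice junctions included, 10 also occur in the spliced KIN2 transcript without a mismatch. Within single exons, LTI30, ERD14, COR47, RAB18 and LEA14 held 0 stretches of 50 bases that occur elsewhere in the assembly. Mismatches between Ler and Columbia and those tolerated by the aligner were not counted here, and how the authors treated reads with several matches is unknown here.

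Levels of different genes were compared per kilobase of the longest annotated transcript, so the orders depend on its annotated length. That transcript has 2320 bases for COR47, 798 of them coding, and 1178 for ERD14, 558 of them coding. Before division by length, COR47 stood above ERD14 in dme, at an implied mean of 33816 against 18430.5. In dme the order was ERD14 with an implied 15646 normalized counts per kb, COR47 with 14576, LTI30 with 3328, LEA14 with 2294, RAB18 with 347.0 and KIN1 with 243.7. In WT it was COR47 with 6514, ERD14 with 6512, RAB18 with 1480.1, LEA14 with 412.4, LTI30 with 155.8 and KIN1 with no reads implied. LTI30 thus stood above LEA14 and RAB18 in dme and below both in WT. The lack of values per library leaves it unknown which neighbours in these orders differ beyond their spread.

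**Figure D2:**
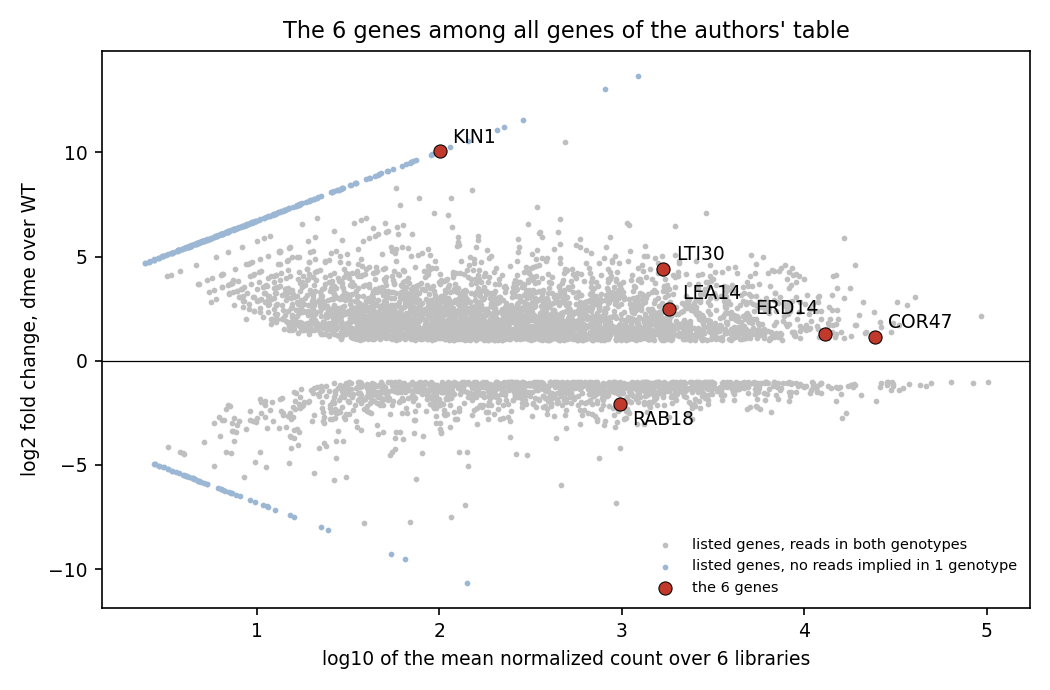
Log2 fold change of dme over WT against the log10 mean normalized count over 6 libraries, for the 5311 measurements of the authors' table; grey points have reads in both genotypes, blue points none implied in 1 genotype, and red points are the 6 genes. COR47 and ERD14 lie at the right end near the lower edge of the higher genes, LTI30 lies near the upper edge of the grey cloud, RAB18 lies among the lower genes, and KIN1 lies on the blue line of genes with no reads implied in WT.

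The other dehydrins were described from a list of 10 genes that includes the 4 above. Of these 10, 5 were listed as higher, 1 as lower (RAB18) and 4 were not listed (XERO1, HIRD11, AT2G21490 and AT4G39130). The 4 above had to be listed because they were chosen from the authors' listed genes. Over all annotated protein-coding genes, 13.6% were listed as higher and 4.83% as lower. The 2 further listed dehydrins were ERD10 and AT4G38410, both higher. ERD10, an acidic dehydrin like COR47, had an implied mean of 20809.9 normalized counts in dme and 3998 in WT, and a log2 ratio of 2.38 (SE at most 0.43, adjusted p 2.69e-08) in the authors' deposited table. AT4G38410 had a mean of 17.1 normalized counts according to the authors' deposited table, with no reads implied in WT.

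Several of these genes sit side by side. COR47 and ERD10 lie next to each other on chromosome 1 in the same orientation, 1029 bases apart, and both were higher in dme. LTI30 and XERO1 are separated by 313 bases on chromosome 3, in the same orientation, and XERO1 was not listed. The annotation in the table names ERD10 as the closest protein match of both COR47 and ERD14, XERO1 as that of LTI30 and of RAB18, KIN2 as that of KIN1, and LEA27 (AT2G46140) as that of LEA14. LEA27, which was looked up after the values were seen, had an implied mean of 567.3 normalized counts in dme and 79.3 in WT, and a log2 ratio of 2.84 (SE at most 0.21, adjusted p 1.14e-41) in the authors' deposited table.

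A second list held 21 LEA, KIN and COR genes, with LEA14 and KIN1 among them. Of these, 9 were higher, 2 lower and 10 not listed. LEA14 and KIN1, both higher, had to be listed because they were chosen from the authors' listed genes. Over all annotated protein-coding genes, 13.6% were listed as higher and 4.83% as lower. Of the listed genes on this second list, ERD7, an early dehydration gene, had the largest mean normalized count. Its implied mean was 16337 normalized counts in dme and 740.5 in WT, with a log2 ratio of 4.46 (SE at most 0.33) in the authors' deposited table. RCI2A and RCI2B, which encode small membrane proteins of the cold response, had log2 ratios of 1.07 (SE at most 0.08) and 3.85 (SE at most 0.15) in the authors' deposited table. LEA4-5 and LEA7, which encode LEA proteins of another family, stood at 3.57 (SE at most 0.95) and 2.17 (SE at most 0.77) as log2 ratios in the authors' deposited table. The cold genes COR15A and COR15B, the COR413 genes and the seed LEA genes EM1 and EM6 were not listed, nor were LEA18, SAG21 and COR28.

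The 2 lower genes of that list were RD29B and COR27, a gene under cold and clock control. COR27 had a log2 ratio of -1.82 (SE at most 0.24, adjusted p 3.17e-14) in the authors' deposited table. RD29B lies 1185 bases upstream of its relative RD29A on chromosome 5, and the neighbours went in opposite directions. RD29A had an implied mean of 896.9 normalized counts in dme and 61.4 in WT, whereas RD29B had one of 34.4 in dme and 177.0 in WT. Their log2 ratios in the authors' deposited table were 3.87 for RD29A (SE at most 0.74, adjusted p 1.44e-07) and -2.36 for RD29B (SE at most 0.41, adjusted p 8.91e-09).

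**Figure D3:**
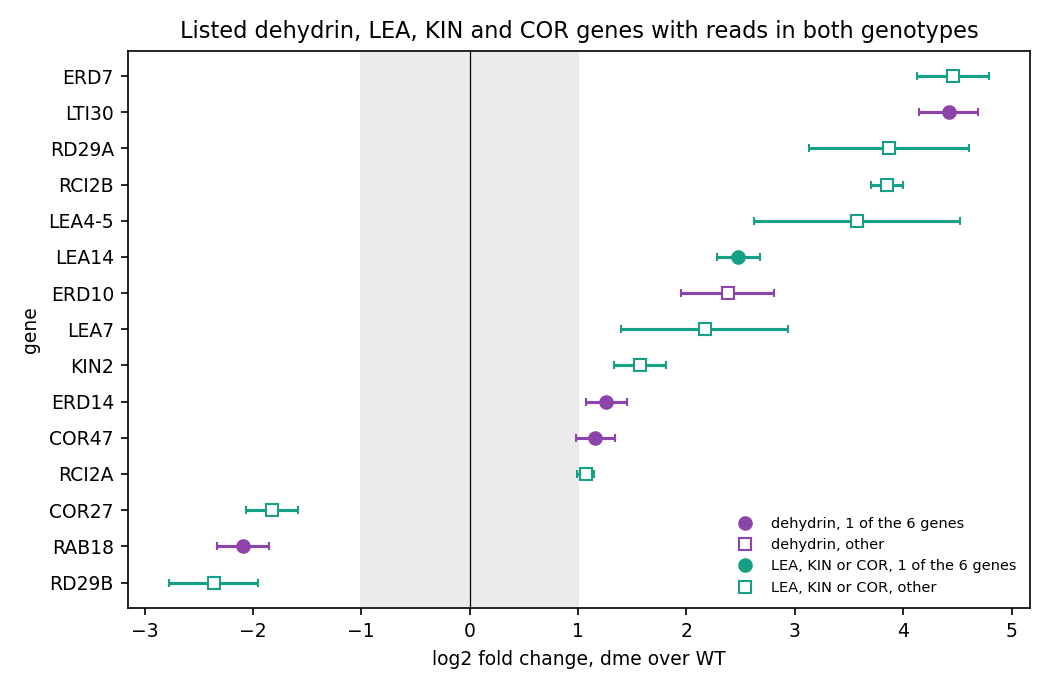
Log2 fold changes of dme over WT for the 15 listed dehydrin, LEA, KIN and COR genes with reads in both genotypes; bars are the largest standard error that the adjusted p allows under a Wald test, filled circles are 5 of the 6 genes (KIN1 has no fold of its own), and the grey band spans changes below 2-fold. There are 12 genes on the right, from RCI2A to ERD7, and 3 on the left: COR27, RAB18 and RD29B.

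The promoters of RD29A and RD29B are shown as a second pair that differ in direction and in elements, at chr5:21240467-21240716, plus strand, for RD29A and chr5:21236771-21237020, plus strand, for RD29B, in TAIR10.1. The capitals have the same meaning as above.
RD29A: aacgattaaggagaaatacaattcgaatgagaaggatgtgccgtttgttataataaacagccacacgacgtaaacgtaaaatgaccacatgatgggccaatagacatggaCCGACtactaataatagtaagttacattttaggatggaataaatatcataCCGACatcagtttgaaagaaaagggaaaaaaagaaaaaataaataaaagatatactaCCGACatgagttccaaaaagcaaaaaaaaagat
RD29B: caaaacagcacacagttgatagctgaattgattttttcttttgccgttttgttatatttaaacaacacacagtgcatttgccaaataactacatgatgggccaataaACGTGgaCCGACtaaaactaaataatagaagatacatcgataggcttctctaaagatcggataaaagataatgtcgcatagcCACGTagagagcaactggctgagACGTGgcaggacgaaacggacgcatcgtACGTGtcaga
The RD29A stretch holds 3 CRT/DRE cores and no ABRE core, and the RD29B stretch 4 ABRE cores and 1 CRT/DRE core. A further CRT/DRE core of RD29A lies just past its annotated start, outside the stretch shown. Bases deeper in the gene were not searched. The lack of an ABRE core in RD29A, and so the contrast of this pair, therefore depends on where the annotated start lies. These 2 pairs were chosen after their values were seen. Within the bases searched, the lower gene of each has the more ABRE cores and the higher gene the more CRT/DRE cores. Other genes described here do not share this pattern: ERD14, LEA14 and KIN1 were higher and each held more ABRE than CRT/DRE cores. A relation of these cores to direction was not tested.

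The 6 genes and all promoters were then searched in the same way. In the window of 250 bases before to 50 after the gene start, 5 of the 6 genes held an ABRE core and 2 a CRT/DRE core (LTI30 and LEA14). Over the 27443 promoters of annotated nuclear protein-coding genes, 26.7% held an ABRE core and 15% a CRT/DRE core. COR47, which was higher, held neither core in its window, nor did ERD10. An ABRE core was present in 32.6% of the higher and 31.9% of the lower protein-coding genes of the table, and a CRT/DRE core in 13.5% of the higher and 12.7% of the lower ones. Among the listed genes of the 8 lists on cold, LEA proteins and ABA, 21 of 29 higher and 6 of 9 lower genes held an ABRE core, and 12 of 29 higher and 2 of 9 lower genes held a CRT/DRE core. Over all 122 genes of these lists, listed or not, 57.4% held an ABRE core and 28.7% a CRT/DRE core. The windows depend on where the annotated start lies, and the absence of a core says only that these letters are not in the window.

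**Figure D4:**
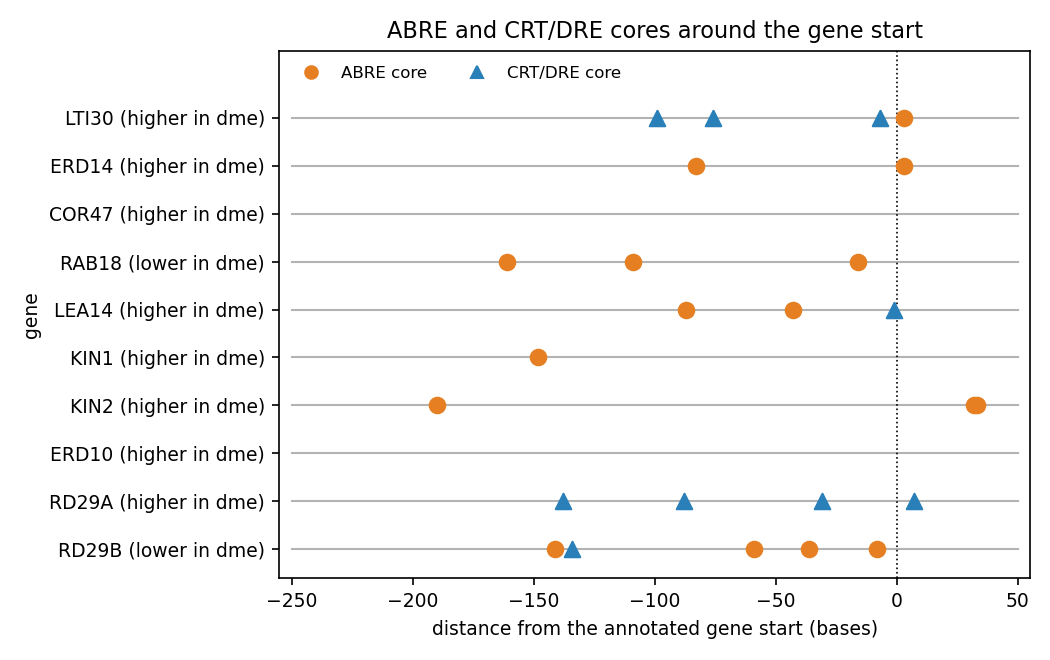
Positions of ABRE cores (ACGTG, orange circles) and CRT/DRE cores (CCGAC, blue triangles), on either strand. The lines run from 250 bases before to 50 bases after the annotated start in TAIR10.1. Shown are the 6 genes, their neighbours KIN2 and ERD10, and the adjacent pair RD29A and RD29B. LTI30 and RD29A carry 3 and 4 triangles (LTI30 also 1 circle). RAB18 and RD29B carry 3 and 4 circles (RD29B also 1 triangle), and the lines of COR47 and ERD10 are empty.

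The wider pathway was read from 8 lists with 122 genes, the 6 genes included. Of these 122, 38 (31.1%) were listed, 29 higher and 9 lower. Without the 6 genes, 32 of 116 (27.6%) were listed, 24 higher and 8 lower, against 18.5% of the annotated protein-coding genes, some of which the authors may not have tested. Among all listed genes 72.8% were higher.

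Of 17 genes of ABA synthesis, breakdown and transport, 4 were higher, 2 lower and 11 not listed, with synthesis and breakdown genes in both directions. CYP707A1 and CYP707A3, which encode hydroxylases that start the breakdown of ABA, were higher, with log2 ratios of 4.26 (SE at most 0.21) and 3.23 (SE at most 0.90) in the authors' deposited table. CYP707A1 had an implied mean of 1794 normalized counts in dme and 93.5 in WT, and CYP707A3 one of 8427 in dme and 896.2 in WT. Their relative CYP707A4 was lower, at -2.13 (SE at most 0.43) as a log2 ratio in the authors' deposited table. ABA1, the zeaxanthin epoxidase that makes ABA precursors, was lower at -1.50 (SE at most 0.07, adjusted p 9.22e-102), and the exporter gene ABCG25 higher at 1.30 (SE at most 0.10), both in the authors' deposited table. ABA3, which encodes the enzyme that activates the cofactor of the last step, was also higher, at a mean of 14.7 normalized counts and an adjusted p of 0.0382 by the authors' deposited table. The 5 NCED genes on the list, which encode the rate-limiting cleavage step, were not listed, nor were ABA2 and AAO3.

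Among the genes that carry the ABA signal, 5 of 38 (13.2%) were listed, beside the 18.5% of the annotated protein-coding genes. Of 14 receptor genes, 2 were higher: PYL2, at a log2 ratio of 2.01 (SE at most 0.98, adjusted p 0.0399) in the authors' deposited table, and PYL3, with a mean of 7.26 normalized counts and no reads implied in WT. Among 14 genes of the phosphatases that restrain the signal and the kinases that relay it, 2 were higher, the phosphatase genes HAI3 and AHG1. Their means in the authors' deposited table were 46.6 and 6.44 normalized counts, again with no reads implied in WT. Of 10 ABA transcription factor genes, the bZIP gene EEL was the 1 listed, higher at 2.72 (SE at most 0.40, adjusted p 8.35e-12) as a log2 ratio in the authors' deposited table.

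Of 20 further ABA and drought targets, 3 were higher and 3 lower. The lower ones were RD20, a caleosin gene, at -2.12 (SE at most 0.20), ATHB12, a homeodomain factor gene, at -1.30 (SE at most 0.14), and TSPO, a membrane protein gene, at -1.10 (SE at most 0.44) as log2 ratios in the authors' deposited table. The higher ones were LTP3, a lipid transfer protein gene, at 4.46 (SE at most 0.44), the alcohol dehydrogenase gene ADH1 at 4.01 (SE at most 0.23) and HVA22D at 1.53 (SE at most 0.18) in log2 units of the authors' deposited table.

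Of 16 cold signalling genes, 3 were higher and 1 lower. The factor genes MYB15, which represses CBF genes, DREB2A, which acts in drought and heat, and CAMTA3 had log2 ratios of 3.79 (SE at most 0.64), 2.40 (SE at most 0.87) and 1.27 (SE at most 0.13) in the authors' deposited table. SFR6, a Mediator subunit gene needed for the expression of cold genes, was lower, with a mean of 38.6 normalized counts and an adjusted p of 0.017 by the authors' deposited table; its implied dme mean was 0.352, so the size of its fold rests on few reads. The 4 CBF genes and ICE1 were not listed.

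**Figure D5:**
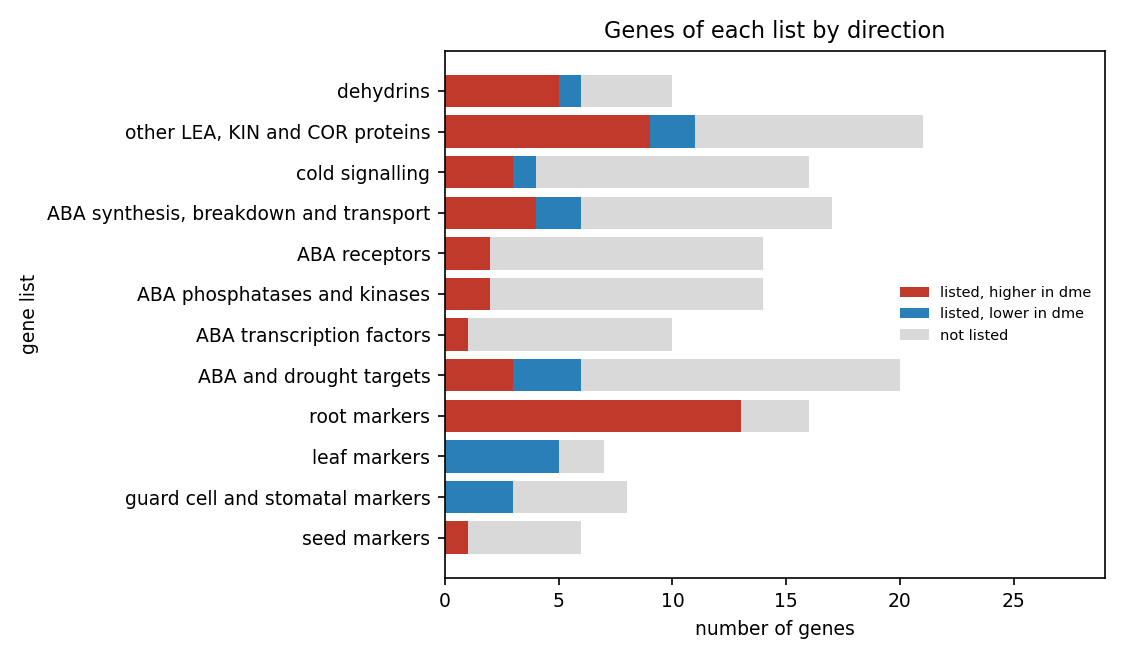
Number of genes of each list that the authors' table holds as higher in dme (red) or lower in dme (blue), and the number not listed (grey). The dehydrins and the other LEA, KIN and COR proteins have the longest red parts among the 8 pathway lists, and the root markers have the longest of all. The dehydrin list and the LEA, KIN and COR list hold the genes described here, which were chosen because they are listed. The lengths of their coloured parts are therefore partly set by that choice.

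Markers of organs and cell types were read from 4 further lists. These lists were chosen with earlier results of these data known, so their counts are a description and carry no test. Over all annotated protein-coding genes, 13.6% were listed as higher and 4.83% as lower. Of 16 root markers, 13 were higher and 0 lower, with a summed implied mean of 14479.8 normalized counts in dme and 834.8 in WT over the listed ones and a median log2 ratio of 2.76. The 3 uptake genes SULTR1;2, FRO2 and IRT1 made up 69.9% of the dme sum, and without them the sums were 4356 in dme and 516.4 in WT. Of 7 leaf markers, 5 were lower and 0 higher, with sums of 42849 in dme and 103124 in WT. Of 8 guard cell and stomatal markers, 3 were lower and 0 higher (FAMA, MYB60 and TMM), with sums of 1949 in dme and 4921 in WT, and the other 5 (KAT1, SLAC1, HT1, EPF1 and GC1) were not listed. Of 6 seed markers, SESA1 was the 1 listed, with an implied mean of 9.33 in dme and no reads implied in WT, and the other 5, such as the storage protein gene CRA1 and the oleosin gene OLEO1, were not listed. The part of these markers in the values of the 6 genes was not tested.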

How the data were processed

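RNA was measured in whole seedlings, with 3 libraries of dme and 3 of WT, grouped by their titles. Trimmomatic 0.36, HISAT2 2.1.0, StringTie 2.1.3 and TAIR10 as the build are named in the submitters' processing notes; no source used here gives the counting of reads, the use of strand or the test and its adjustment. Per the file headers the authors deposited, for each listed gene, a mean normalized count (a signal whose scaling is not stated), a log2 fold change, a linear fold change and an adjusted p-value. No column holds values per library, so the depth is unknown and no fit was made.

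From these values the genotype means were computed as those that give the authors' mean and fold with 3 libraries each, and the bound of an SE by dividing the size of the log2 ratio by the normal quantile for the adjusted p. In 290 genes the log2 mean less the size of the log2 ratio was -3.40 or less, while in the others it was -2.50 or more; in the 290, no reads are implied in 1 genotype. In 11 pairs of rows all values are repeated, and each pair was counted once. The 6 genes and the lists (159 genes, all found by locus code in the RefSeq annotation of TAIR10.1) were chosen with earlier results of these data known. Named were the 6 genes, each listed gene of the first 2 lists and up to 4 of each other list by adjusted p; CYP707A3, ABA3, HVA22D, TSPO and LEA27 were named after their values were seen. Promoters, exons and motifs were read by locus code from TAIR10.1, with nuclear chromosomes as in TAIR10. The steps were tested on simulated data. Python 3.11.15, numpy 2.4.6, pandas 2.3.3, scipy 1.17.1 and matplotlib 3.10.9 were used. Alternatives were an adjusted p under 0.01, a threshold of 4-fold, means of 50 or more, shifts of all log2 fold changes by -0.5 and 0.5 and a shorter promoter window, and, chosen after seeing the data, counts without the 6 genes or without genes lacking reads in 1 genotype.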

Additional observations from a re-analysis of the deposited data

How the results depend on the processing

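The count of 29 higher genes in the 8 pathway lists lay between 22 and 29 under every alternative tried. The 9 lower genes numbered 5 at a 4-fold threshold and between 7 and 9 under the others. Since the table holds only genes past its own thresholds, an alternative can keep or remove genes but add none, so these counts could only stay or fall by construction. With -0.5 added to all log2 ratios from the authors' deposited table, those of LTI30, ERD14, COR47, RAB18 and LEA14 came to 3.92, 0.76, 0.66, -2.59 and 1.98, so that ERD14 and COR47 would no longer pass a 2-fold change. With a shift of 0.5 they came to 4.92, 1.76, 1.66, -1.59 and 2.98. No direction turned. The shifts are examples, not estimates. With 250 bases before the gene start alone, 4 of the 6 genes held an ABRE core and 1 a CRT/DRE core, fewer because the window is shorter. No paired analysis was possible because the table gives no value per library, and for the same reason leaving out a replicate was not run. Without library totals the limit that depth sets is unknown.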

Other observations

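Other genes described as LEA proteins in the authors' deposited table were mostly higher in dme. Of 34 such genes, LEA14 included, 31 were higher and 3 lower, or 91.2% higher against 72.8% of all listed genes; no test was made, and the words were searched after the values were seen. The name covers different families. There were 17 genes of the hydroxyproline-rich glycoprotein family, which are relatives of the immune gene NDR1, and 16 of them were higher. The smallest adjusted p was that of NHL6, 2.44e-86, at a log2 ratio of 3.06 in the authors' deposited table. NDR1 itself stood at 2.35 and NHL13 at 3.05 as log2 ratios in the authors' deposited table. The remaining 17 genes comprised 15 higher and 2 lower ones. They include LEA26, a relative of LEA14, at 1.63 (SE at most 0.11) and AT2G23120, with a mean of 6093 normalized counts and a log2 ratio of 2.43, in the authors' deposited table. The lower ones were the LEA3 family gene AT1G02820, at -1.65, and AT2G23110, at -1.40, as log2 ratios in the authors' deposited table.

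Wider terms were searched in the annotation text of the table. Of 34 listed genes whose text names a response to cold, 26 were higher and 8 lower (76.5% higher). For a response to abscisic acid 15 were higher and 6 lower (71.4%), and for a response to water deprivation 18 were higher and 4 lower (81.8%), beside the 72.8% of all listed genes. The text names no processes for some genes and was left out in part for 219 of the 5322 rows, so these counts are incomplete.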
